A study of Homo sapiens with 3 samples.

Results

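The regions described here are the 539 ChIP-seq peaks of MECOM that spanned the annotated start of a gene with a symbol, of 3462 peaks in the list. They were chosen by the place that the deposited annotation gives each peak, with no use of its height: 536 overlapped the start and 3 covered the whole gene. They belonged to 539 different genes and made up 21.8% (exact 95% binomial interval 20.2 to 23.5) of the 2474 peaks assigned to a gene with a symbol. A further 136 peaks spanned the start of a gene without a symbol. Of the symbols, 510 are in RefSeq as given, 19 are there under a newer symbol and 10 are not in the table used. The matched genes comprised 476 protein-coding genes, 48 long non-coding RNA genes, 3 transcribed pseudogenes, 1 vault RNA gene and 1 microRNA gene.

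The study precipitated MECOM by an AM tag, a short peptide for which an antibody is sold, from HEK293T cells, a transformed human embryonic kidney line. The 3 groups of cells received pMYS-IG alone, tagged MECOM-WT or its mutant MECOM-R750W, with 1 library per group, so the protein was introduced into a line that is not of blood origin. The peak list used carries the name of the WT library and is tied to it by that name alone. The lists of the vector and R750W libraries, and the DL/AS form that the series also names, were not analysed here, so no peak has a replicate or a vector control beside it.

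MECOM, also called EVI1, is a transcription factor with 2 groups of zinc fingers. The N-terminal group binds a GATA-like sequence, and the C-terminal group an ETS-like one. Its overexpression marks a group of myeloid leukaemias with poor outcome. Most human genes start in stretches rich in the dinucleotide CpG, where GC boxes, CCAAT boxes and sites of ETS, NRF1 and YY1 factors are common, while a minority start at a TATA box.

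The stretches before several of these starts are shown to set the peaks beside the letters that MECOM and ETS factors are known to bind. All come from the RefSeq promoter table on GRCh38.p14, run 5′ to 3′ on the gene's own strand, and hold the 250 bases before the RefSeq start. Capitals mark CCGGAAG (ETS site), GGAAGT (ETS core, which overlaps the ETS site where the letters run on) and GAAGATGAG (site of the C-terminal fingers of MECOM), read on either strand. The first 5 were the members of highest fold with such letters in this stretch, among 35 candidates with no other RefSeq start in the printed bases. They lie at chr2:63588713-63588962 (plus strand, MDH1), chr3:149752490-149752739 (minus, COMMD2), chr1:40257986-40258235 (plus, ZMPSTE24), chr9:33524001-33524250 (plus, ANKRD18B) and chr7:48088454-48088703 (plus, UPP1).
MDH1: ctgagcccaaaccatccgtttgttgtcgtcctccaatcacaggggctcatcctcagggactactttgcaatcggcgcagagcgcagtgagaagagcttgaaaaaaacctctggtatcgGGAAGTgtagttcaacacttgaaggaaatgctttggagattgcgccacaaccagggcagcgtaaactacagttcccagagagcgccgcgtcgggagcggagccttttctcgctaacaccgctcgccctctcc
COMMD2: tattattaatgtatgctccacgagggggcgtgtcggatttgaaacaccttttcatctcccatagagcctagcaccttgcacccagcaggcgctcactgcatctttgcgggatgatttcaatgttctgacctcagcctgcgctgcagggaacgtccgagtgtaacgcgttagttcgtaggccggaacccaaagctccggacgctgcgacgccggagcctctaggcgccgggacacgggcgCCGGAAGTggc
ZMPSTE24: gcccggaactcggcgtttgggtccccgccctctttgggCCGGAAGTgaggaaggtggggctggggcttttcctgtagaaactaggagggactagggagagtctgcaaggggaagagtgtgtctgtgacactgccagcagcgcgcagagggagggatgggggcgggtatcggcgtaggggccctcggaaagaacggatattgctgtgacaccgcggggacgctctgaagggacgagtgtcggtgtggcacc
ANKRD18B: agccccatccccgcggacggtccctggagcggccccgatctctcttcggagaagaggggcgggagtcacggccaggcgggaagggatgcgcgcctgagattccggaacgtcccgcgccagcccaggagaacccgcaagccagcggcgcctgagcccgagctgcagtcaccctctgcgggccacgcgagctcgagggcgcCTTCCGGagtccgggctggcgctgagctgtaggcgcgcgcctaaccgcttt
UPP1: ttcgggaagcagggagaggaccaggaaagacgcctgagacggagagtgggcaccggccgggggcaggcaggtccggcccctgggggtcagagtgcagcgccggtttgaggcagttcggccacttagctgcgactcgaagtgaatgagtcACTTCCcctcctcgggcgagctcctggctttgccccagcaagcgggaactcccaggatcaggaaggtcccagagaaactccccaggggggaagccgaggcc
In 4 of these 5 stretches the capitals lay inside the peak. The exception was ZMPSTE24, the gene of a protease that matures prelamin A, where the site began 212 bases before the start and the peak reached only 145 bases into the stretch. The sites began 132 bases before the start in MDH1, 11 in COMMD2, 51 in ANKRD18B and 101 in UPP1, so they held no common position.

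The next 2 stretches, at chr2:99337139-99337388 (plus strand, EIF5B) and chr4:167234495-167234744 (minus, SPOCK3), were the highest of 13 candidates, chosen in the same way, whose whole window held none of the 15 motifs searched. FRY, which is higher and also holds none, is not among them because another RefSeq start lies in those bases. The pair of EIF5B and SPOCK3 is shown beside the holders as stretches without such letters, with peaks of 7.57-fold and 6.35-fold. The holders printed above had 6.30 to 8.25, a range that the requirement on the peak centre helped to set.
EIF5B: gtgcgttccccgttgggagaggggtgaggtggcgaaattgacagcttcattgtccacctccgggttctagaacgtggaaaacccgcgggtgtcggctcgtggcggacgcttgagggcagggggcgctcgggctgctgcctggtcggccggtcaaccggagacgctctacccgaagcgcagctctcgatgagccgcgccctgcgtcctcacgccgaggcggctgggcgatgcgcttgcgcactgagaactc
SPOCK3: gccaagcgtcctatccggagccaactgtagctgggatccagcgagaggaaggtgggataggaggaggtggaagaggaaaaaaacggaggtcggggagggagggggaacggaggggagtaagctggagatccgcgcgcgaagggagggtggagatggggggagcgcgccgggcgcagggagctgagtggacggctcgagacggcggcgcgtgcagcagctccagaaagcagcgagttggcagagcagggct
A further 3 stretches were chosen after their values were seen: UGT8, the one window with the MECOM C-terminal letters, and TAF13 and HINFP, 2 of the 3 highest peaks. They lie at chr4:114598152-114598401 (plus strand, UGT8), chr1:109076004-109076253 (minus, TAF13) and chr11:119121330-119121579 (plus, HINFP).
UGT8: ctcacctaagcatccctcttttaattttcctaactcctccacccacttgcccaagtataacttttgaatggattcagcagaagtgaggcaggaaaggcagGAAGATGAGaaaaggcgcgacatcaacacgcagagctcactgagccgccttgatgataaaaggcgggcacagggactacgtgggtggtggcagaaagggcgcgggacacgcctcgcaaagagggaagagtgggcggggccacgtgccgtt
TAF13: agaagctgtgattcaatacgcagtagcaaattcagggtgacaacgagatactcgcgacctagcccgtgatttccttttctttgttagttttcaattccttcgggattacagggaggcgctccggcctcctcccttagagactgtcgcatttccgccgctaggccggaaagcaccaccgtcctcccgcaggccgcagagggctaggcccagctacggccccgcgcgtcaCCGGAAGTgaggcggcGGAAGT
HINFP: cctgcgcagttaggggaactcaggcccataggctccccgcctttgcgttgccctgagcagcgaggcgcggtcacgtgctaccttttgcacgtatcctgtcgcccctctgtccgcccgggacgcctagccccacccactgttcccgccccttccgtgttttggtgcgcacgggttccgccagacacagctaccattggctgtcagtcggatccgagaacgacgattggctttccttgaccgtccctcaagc
In UGT8, which makes galactosylceramide of myelin, the site began 150 bases before the start, outside a peak (5.55-fold, 3.53 to 8.35) that reached 22 bases into the stretch. TAF13 had an ETS site 22 bases before its start and a second ETS core 6 bases before it, both inside the peak. HINFP had none of the marked letters.

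Peaks across named starts were shallow. The fold enrichment of a peak, the authors' value, is the height of its fragment pile-up plus 1, divided by the expected local background plus 1. Fragments of a peak are, here and below, that height at a point, and not a count of all fragments in the peak. Its median over the 539 peaks was 4.79 (order-statistic 95% interval 4.67 to 5.01), the quartiles were 3.98 and 5.69 and the range from 2.64 to 15.5. The pile-up had a median height of 19 fragments, from 10 to 62, over a background of 2.96 fragments (1.7 to 11.9). Intervals given below for single peaks are exact 95% Poisson limits on its fragments, set over a background taken as known. They cover counting error in 1 library only, and since PCR copies were not told apart by molecular identifiers, fragments may not be independent.

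The highest peak lay across the start of SERINC1, a membrane protein of the serine incorporator family (chr6:122471216-122471823, minus strand). It rose to 42 fragments over a background of 1.78, a fold of 15.5 (11.3 to 20.8), and extended 606 bp into the gene but only 1 bp before it. The peak of TAF13, a subunit of the general transcription factor TFIID (chr1:109075698-109076146, minus strand), rose to 39 fragments over 2.1, a fold of 12.9 (9.26 to 17.5). That of HINFP, a zinc finger activator of histone H4 genes (chr11:119121436-119122036, plus strand), rose to 30 fragments over 1.95, a fold of 10.5 (7.20 to 14.9). The intervals of these 3 overlapped, so their order was not resolved. WDFY3, a scaffold of selective autophagy, followed at 10.4 (6.97 to 14.9), with 1053 bp of its peak before the start and 141 bp after it. PROS1, which encodes protein S, a brake on blood clotting, reached 10.0 (6.67 to 14.5).

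These were the 5 members with a fold of 10 or more, or 0.928% (0.302 to 2.15) of members, against 0.751% of all 3462 peaks, so the share was near that of the list. The next 5 were ZSCAN23, a SCAN-domain zinc finger gene (9.74), the ephrin receptor gene EPHA3 (9.27), FRY, which encodes a microtubule-binding protein (9.27), AASS of lysine breakdown (9.0) and TCTN1 of the ciliary transition zone (8.90). All 5 stood on backgrounds of 1.7 to 1.87 fragments, so 23 to 27 fragments sufficed for these folds. PRKAR1A, a regulatory subunit of protein kinase A (chr17:68511465-68512299, plus strand), differed in that its fold of 8.81 (6.43 to 11.8) came from 43 fragments over a background of 3.99. Behind it came PTGS2, the inducible cyclooxygenase of prostaglandin synthesis (8.53), MDH1, the cytosolic malate dehydrogenase (8.25), FAM214B (8.16), the lipid kinase gene PI4K2A (8.10) and SNAI2, which encodes the repressor Slug of epithelial-mesenchymal transition (8.01).

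The remainder of the 25 highest lay between 7.57 and 7.92. They were MIPOL1, the O-glucosyltransferase gene POGLUT2, ESS2, the mRNA decapping enzyme gene DCP2, LOC728752, LOC101927502, MCTP1, the translation initiation factor gene EIF5B and FAM126A. LOC728752 had 1 bp of its peak before the start, like SERINC1. The plot of the 25 highest peaks shows how far their intervals run into each other.

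**Figure D1:**
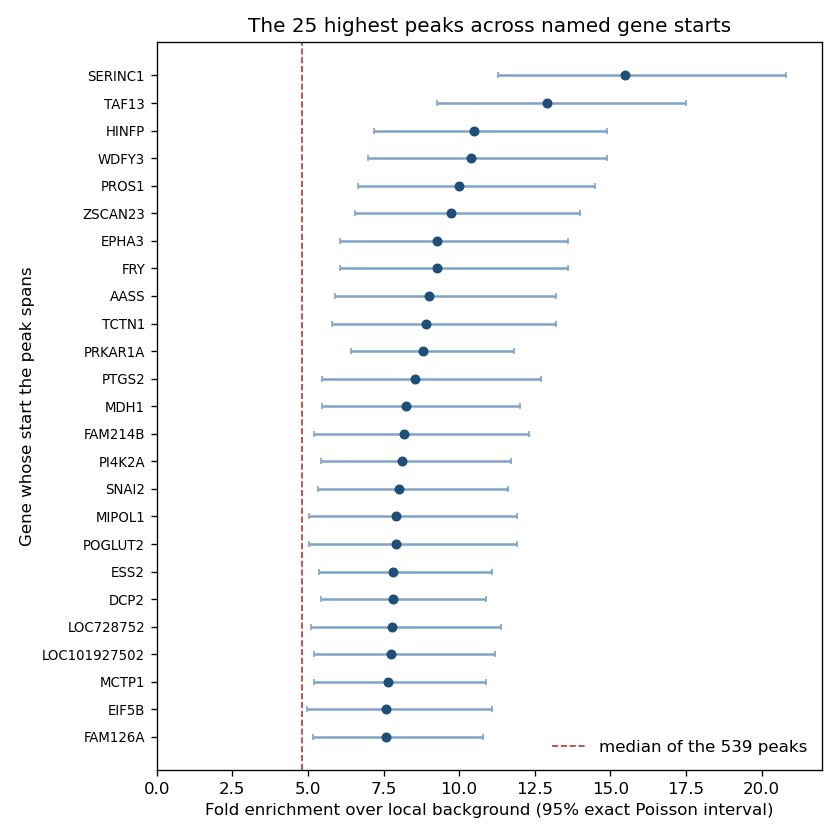
Fold enrichment (x axis, ratio to local background) of the 25 highest peaks across named gene starts (y axis), as points with exact 95% Poisson intervals, and the median of the 539 peaks, 4.79, as a dashed line. SERINC1 at 15.5 and TAF13 at 12.9 lead, and the intervals of neighbouring genes overlap throughout.

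Few members could be ranked. The interval of 473 of the 539 peaks (87.8%) held the members' own median, 30 lay wholly above it and 36 wholly below. Against the median of the whole list, 29 members (5.38%, 3.63 to 7.64) had an interval wholly above, beside 5.46% of all peaks, again a share near the background. The interval of SERINC1 lay wholly above those of 517 members and overlapped those of the other 21.

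The lowest members stood on high backgrounds. ANO8, of the TMEM16 family of channels and scramblases, rose to 33 fragments over a background of 11.9, a fold of 2.64 (1.84 to 3.68). PKN2-AS1 had the same fold from 22 fragments over 7.71. NRSN2-AS1 (2.71), the hydroxylase gene JMJD4 (2.73) and the Rac activator gene DOCK3 (2.79) completed the 5 lowest. Their pile-ups reached 20 to 33 fragments, no fewer than the median member.

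Across members, fold went with background more than with fragments. Over 4 groups of 134 or 135 members ordered from the highest fold to the lowest, the median background was 2.15, 2.46, 3.22 and 5.34 fragments, while median fragments were 20, 18, 18 and 20. Spearman's rho was −0.69 between background and fold and 0.64 between background and fragments over the 539 peaks. These are descriptions across peaks of 1 library. Background enters the fold by definition, and a peak on a low background needs a higher fold to enter a list limited by q.

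**Figure D2:**
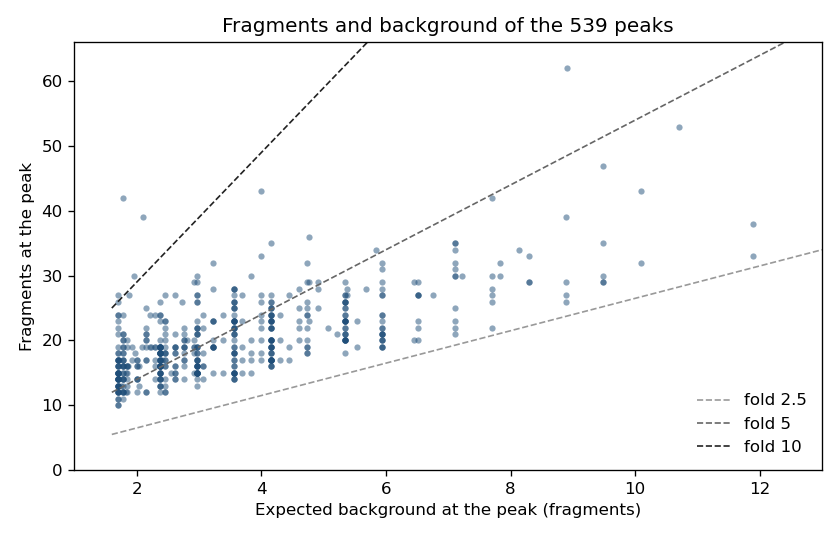
Height of the fragment pile-up at each of the 539 peaks (y axis) against the expected background at that peak (x axis, fragments), 1 point per peak, with dashed lines at equal fold of 2.5, 5 and 10. High folds sit at the left edge, where the background is near 1.7, and PRKAR1A is the point at 43 fragments over 3.99.

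The median height of peaks across starts was close to that of peaks beside starts. The median fold was 4.69 (4.54 to 4.79) in the 890 peaks that lay inside a named gene within 1000 bp of its start and 4.79 (4.67 to 4.96) in the 323 peaks upstream within the same distance. The difference of medians on the log2 scale was 0.03 against the inside peaks and 0.00 against the upstream ones, and the intervals of the 3 medians overlapped. No test over peaks was made, since peaks of 1 library are not replicates. With −log10 q as the height, the differences of median log2 values were larger, at 0.18 and 0.16. The median −log10 q was 5.82 (5.37 to 6.11) in members, 5.13 (4.96 to 5.33) in inside peaks and 5.20 (4.71 to 5.82) in upstream peaks, so by that measure the intervals of members and inside peaks did not overlap. Members were wider, with a median of 524 bp (260 to 2115) against 405 bp inside and 375 bp upstream, but a wider peak is more apt to span a start, so the rule bears on width.

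The widest members were those of COMMD6, of a family that acts in NF-kappaB regulation (2115 bp), the T-box repressor gene TBX3 (2054 bp), the ubiquitin ligase gene MYCBP2 (2025 bp), the RNA-binding protein gene MEX3B (1979 bp) and the desmosomal cadherin gene DSC3 (1901 bp). Their folds ran from 3.97 to 6.98, and none was among the 25 highest. Spearman's rho between width and fold was 0.15, and between width and fragments 0.31. The highest pile-up, 62 fragments, lay at EFCAB2, a gene of the axonemal dynein regulatory complex, in a peak of 1813 bp at 6.36-fold (4.90 to 8.12).

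The median peak was centred a little way into the gene. Peak centres had a median of 65.5 bp after the annotated start (46.5 to 89.5), and ranged from 604 bp before it (−604) to 895 bp after it. The centre lay within 100 bp of the start in 37.3%, within 200 bp in 74.6% and within 300 bp in 88.1% of members, and after the start in 64.2% (60.0 to 68.2). A member covered a median of 199 bp before the start and 302 bp after it, and 313 members covered at least 100 bp on both sides. Of the 440 members in the RefSeq promoter table, 321 (73.0%) also held a RefSeq start of that gene.

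**Figure D3:**
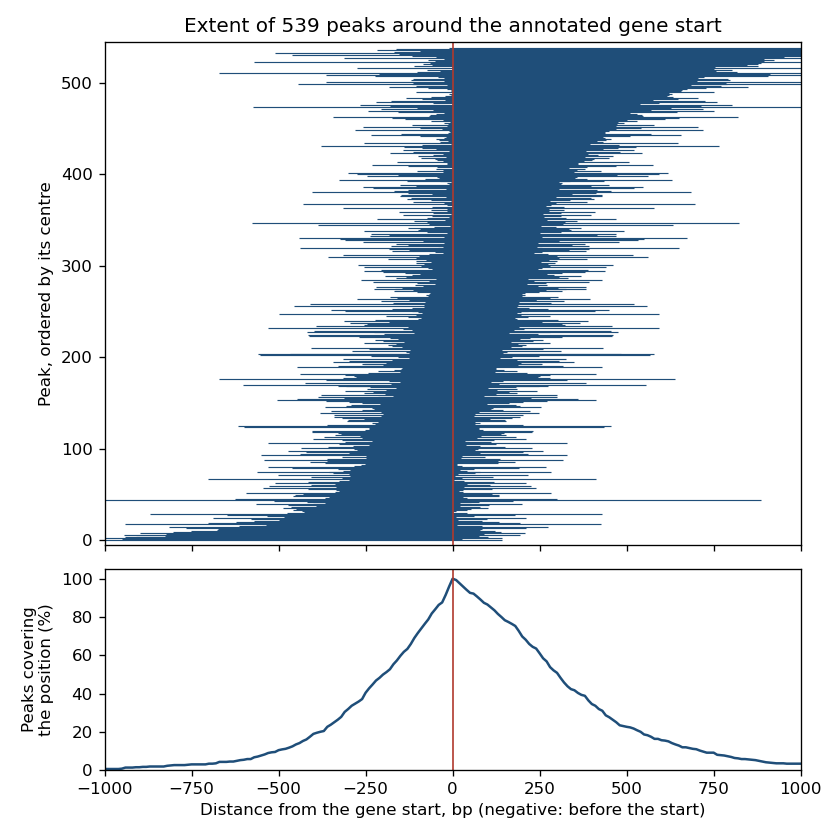
Extent of the 539 peaks around the annotated gene start, 1 horizontal line per peak ordered by its centre (upper panel), and the percent of peaks that cover each position (lower panel), against distance from the start in bp. All cover the start by the rule; 49.9% reach 200 bp before it and 69.8% reach 200 bp after it, and lines longer than 1000 bp are clipped at the edges.

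At the edge of the rule, 29 members had 10 bp or less on one side of the start. Their median fold was 5.15, with a range of 2.83 to 15.5. Just outside the rule, 27 peaks inside a gene and 3 upstream of one came within 10 bp of the start, with median folds of 4.97 and 4.91.

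The 3 peaks that covered a whole gene belonged to short genes. H4C11, a histone H4 gene, had a fold of 7.04 (4.38 to 10.8), and H2BC13, a histone H2B gene on the same chromosome, 6.81 (4.54 to 9.86). Replication-dependent histone genes have near-identical copies, and ANKRD18B has a close paralogue, so how reads were shared between copies could bear on these values, and how multiply mapped reads were handled is not known here. The third, MIR4522, at 4.47 (2.87 to 6.66), also held the start of WSB1, a ubiquitin ligase gene on the opposite strand.

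Most genes had no other peak: 494 of the 539 had only the peak across the start, 39 had 2 peaks and 6 had 3. Those with 3 were BAZ2A of nucleolar chromatin silencing, the N-cadherin gene CDH2, HMGN4 of nucleosome binding, the neuritin gene NRN1, the Rab regulator gene TBC1D4 and TNFRSF1A, a receptor of tumour necrosis factor. No gene had 2 start-spanning peaks.

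A number of peaks could not be given to 1 gene. In 78 members (14.7% of those matched, 11.8 to 18.1) the peak also held an opposite-strand start of another gene from the RefSeq promoter table. In 44 of them that gene was protein-coding. The count is a lower limit: it leaves out RNFT1-DT and ARF4-AS1, whose peaks held the start of RNFT1 and of ARF4. Starts of other genes on the same strand were not counted. Among the highest, WDFY3 shared its peak with WDFY3-AS2, FRY with FRY-AS1, PTGS2 with PACERR, MDH1 with WDPCP and POGLUT2 with BIVM. GLMN (6.86) shared one with RPAP2, and AP4B1, of an adaptor complex (5.93), one with DCLRE1B, a nuclease of telomere protection. The peak of COMMD6 also held the start of UCHL3, a deubiquitinase gene. Median fold was 4.76 (4.34 to 5.34) in the 78 members and 4.79 (4.66 to 5.01) in the others. Median width was 712 bp against 499 bp, and a wider peak is more apt to hold a second start.

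The start of an opposite-strand gene lay within 1000 bp of 28.6% (24.6 to 32.9) of the 476 protein-coding members, against 24.3% of 15843 RefSeq protein-coding genes. The genome-wide share lay just below the interval. This comparison and the next set unlike starts side by side. Members were measured from the deposited gene start, and the 15843 genes from their first start in the RefSeq promoter table, which lacks some members. Either boundary of another protein-coding gene, its start or its far end, lay within 1000 bp of 19.3% (15.9 to 23.2) of them, against 18.7%, inside the interval. These counts overlap, since 59 of the 92 genes with such a boundary also had an opposite-strand start within 1000 bp. Over members of every type the share with a boundary was 23.3%.

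Named antisense and divergent transcripts numbered 27 among the members. In 11 of them the peak held the start of the partner for which the RNA is named. These partners included the demethylase gene JMJD1C (peak of JMJD1C-AS1, 7.06), the chromatin remodeller gene SMARCA5 (SMARCA5-AS1, 5.92), the endoderm transcription factor gene GATA6 (GATA6-AS1, 4.39) and the kinase gene HIPK1 (HIPK1-AS1, 4.28). Peaks counted under an RNA name are in such cases also peaks of a protein-coding start. The peak named for CDKN2B-AS1 (5.05) held instead a start of CDKN2A, a tumour suppressor gene. Which product of CDKN2A that start serves was not determined. Over the 48 long non-coding RNA genes the median fold was 5.01 (4.54 to 5.5), against 4.75 (4.66 to 4.97) over protein-coding members.

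The starts were rich in CpG. The ratio of observed to expected CpG, which is 1 where C and G neighbour each other as often as their numbers give, had a median of 0.848 (0.831 to 0.865) in the 378 member windows that overlapped their peak. A window here is the 250 bases before and 50 bases after a RefSeq start. In the 344 of protein-coding members the median was 0.85 (0.832 to 0.871), and in all 22199 protein-coding windows of RefSeq it was 0.737. These sets are unlike. Each member gave 1 window, that of the RefSeq start nearest its peak centre, while the 22199 windows come from 15843 genes, some counted more than once. The motif shares below are compared in the same way. A ratio over 0.6 was found in 90.4% (86.8 to 93.3) of the 344 protein-coding member windows and in 62.1% of all protein-coding windows. Windows of inside peaks (0.828) and of upstream peaks (0.873) were similarly rich, so the richness was not limited to peaks that spanned the start. Within members, the ratio had almost no rank correlation with fold (Spearman's rho −0.07).

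The letters named for MECOM itself were nearly absent. GAAGATGAG, for the C-terminal fingers, occurred in 1 of 378 member windows (0.265%, 0.0067 to 1.47), that of UGT8, against 0.347% of all 35116 RefSeq windows. GACAAGATA, for the N-terminal fingers, occurred in 0 of 378 (upper limit of the interval 0.971%), against 0.0968%. Both strands were read, and letters of this length are rare in any window. Absence says only that these letters are not in these windows, and most of the 302 bp that peaks covered after the start was not searched.

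Some promoter motifs stood at other shares than in all protein-coding windows, where a gene can count more than once, and no test was made over windows. The ETS site CCGGAAG was in 16.6% (12.8 to 20.9) of protein-coding member windows against 12.8% of all protein-coding windows, and the GC box GGGCGG in 75% (70.1 to 79.5) against 56.3%. The TATA box TATAAA was in 2.62% (1.2 to 4.91) against 9.47%, and the GATA site AGATAA in 4.65% (2.68 to 7.44) against 7.91%. For the ETS site the lower limit touched the genome-wide share, and the interval held that share for the CCAAT box, E-box, NRF1, YY1, CRE and Kaiso sites. Examples are 30.5% (25.7 to 35.7) against 34.7% for the CCAAT box and 6.98% (4.52 to 10.2) against 8.34% for the E-box. Among windows with a CpG ratio over 0.6, the members' interval held the share of all such windows for each of the 15 motifs. There the ETS site was in 17.4% (13.3 to 22) of member windows against 18.5%, the GC box in 77.5% of both, and the GATA site in 4.18% against 3.66%. The gap did not narrow for every motif: for the E-box it was wider in CpG-rich windows, and for YY1 the share was 2.62% against 2.41% in all windows and 2.57% against 3.70% in CpG-rich ones.

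Of the remaining motifs, the E2F site GCGGGAA was in 14.8% (11.2 to 19.0) of protein-coding member windows against 8.13%, and in 14.8% (11.0 to 19.2) against 11.4% among CpG-rich ones. The ETS core GGAAGT was in 29.4% (24.6 to 34.5) of protein-coding member windows against 23.9%, and in 29.3% (24.3 to 34.7) against 24.8% among CpG-rich ones. Over all protein-coding windows the AP-1 site was in 2.91% (1.40 to 5.28) of member windows against 6.15%. For the E-box CACGTG, the CpG-rich shares were 7.07% (4.49 to 10.5) against 10.3%, and for the CCAAT box CCAAT 30.2% (25.2 to 35.7) against 33.4%. In CpG-rich windows the CRE site TGACGTCA, the AP-1 site TGANTCA, the NRF1 site GCGCATGCG, the YY1 site AAGATGGCG and the Kaiso site TCTCGCGAG each lay in 1.93% to 3.54% of member windows and in 1.47% to 3.70% of all. Both strands were read for every motif. The ETS core can overlap the ETS site and the E2F site, and the N-terminal MECOM letters can overlap the GATA site.

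**Figure D4:**
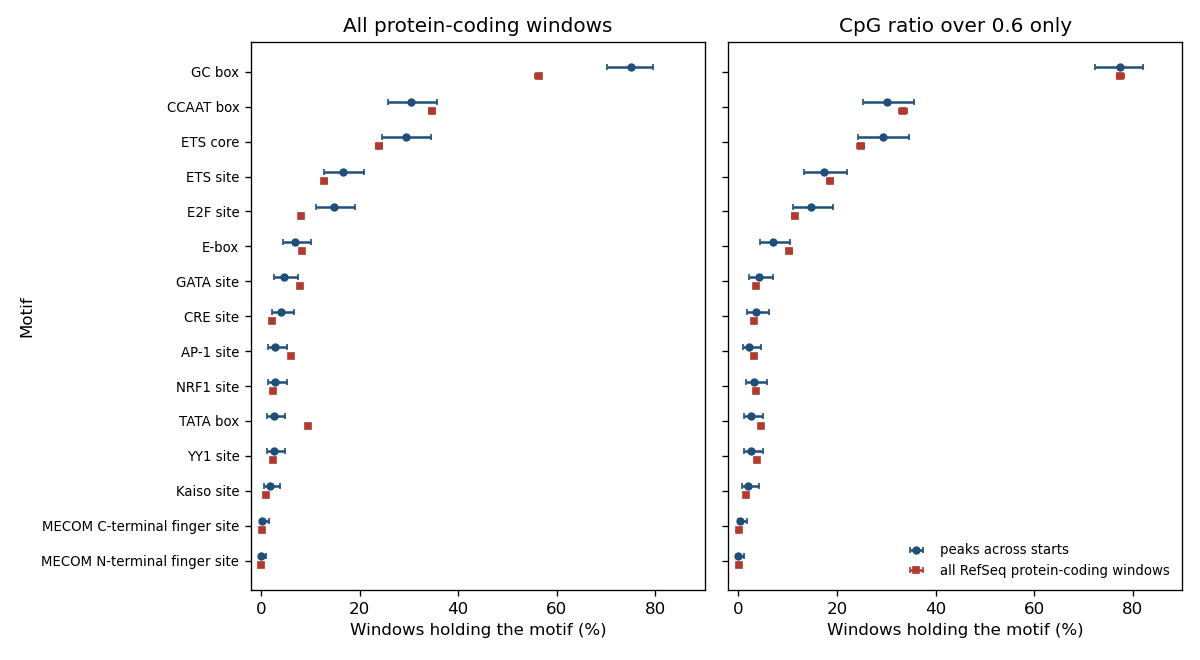
Percent of promoter windows that hold each motif (x axis), for protein-coding member windows (circles, 344 at left and 311 at right) and all RefSeq protein-coding windows (squares, 22199 and 13794), with exact 95% binomial intervals. At left the GC box stands at 75% against 56.3%; at right, with CpG ratio over 0.6, both stand at 77.5%.

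For the ETS core and the GC box, median height was close with and without the letters. Members with an ETS site had a median fold of 5.05 (4.68 to 5.5, n = 62), and those without one 4.82 (4.66 to 5.04, n = 316). With and without the GC box the medians were 4.83 and 4.79. For the ETS core they were both 4.83. The widest gaps were in motifs with few holders: 5.80 (3.18 to 7.82, n = 11) with a TATA box against 4.83 without, 4.03 (3.20 to 6.14, n = 6) against 4.83 for Kaiso, 4.08 (3.51 to 6.36, n = 11) against 4.85 for YY1 and 5.25 (4.15 to 7.05, n = 16) against 4.82 for the GATA site. In each of these 4 the interval with the motif held the median without it.

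The genes behind the peaks spanned many functions. Groups were formed from patterns of symbols alone, so members of like function with other symbols are not counted. Counts, medians and leading genes below hold for the matched symbols only. In all, 142 members fell into at least 1 of 19 groups. Over all 20056 protein-coding genes of RefSeq, 2.37% had a start-spanning peak with that symbol, and the share of each group is given beside that value. Groups were chosen with earlier results of these data known, and no test over genes was made.

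Matched symbols of kinases, phosphatases and their subunits supplied 17 members of 328 genes (5.18%, 3.05 to 8.17), with a median fold of 4.15. Besides PRKAR1A the matched members were led by the receptor phosphatase gene PTPRD (6.68), CDK18 (5.64) and the protein kinase C gene PRKCA (5.31). The lowest of them was PIK3R1, a regulatory subunit of phosphoinositide 3-kinase (2.89). The pattern missed some kinase genes of higher fold than PTPRD, among them EPHA3 (9.27), PI4K2A (8.10) and RIOK3 (6.94). A further regulatory subunit of protein kinase A, PRKAR2B, had a fold of 4.04 (2.37 to 6.49), an interval that just reached that of PRKAR1A.

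Developmental transcription factors of the homeobox, SOX, FOX, POU and T-box names supplied 13 members of 215 genes (6.05%, 3.26 to 10.1). With HOXB-AS1 their median fold was 4.38. HOXB13, of posterior patterning, was the highest of those matched (5.84, 3.72 to 8.79), followed by the forkhead genes FOXN2 (5.40) and FOXF2 (5.24) and by TBX3 (5.07). The homeobox genes ISL1 (5.21) and BARX2 (5.04) are members that the pattern did not match. HOXB13, HOXB9 and HOXB-AS1 lie in 1 gene cluster, so these are not separate draws.

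General transcription factors supplied 5 members of 137 genes (3.65%, 1.2 to 8.31), with a median fold of 5.92. Beside TAF13 they were SNAPC1 of small nuclear RNA transcription (5.93), the TBP-related gene TBPL1 (5.92), the Mediator subunit gene MED23 (5.04) and TAF2 of TFIID (4.05). Only TAF13 stood above 6.

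Translation supplied 8 members of 282 (2.84%, 1.23 to 5.51; median fold 5.02), from EIF5B (7.57) through the ribosomal protein gene RPS29 (5.54), EIF1B (5.41) and the mitochondrial ribosome gene MRPS27 (5.34). RNA processing supplied 9 of 256 (3.52%, 1.62 to 6.57; median 4.21). The highest matched there were the cold-inducible RNA-binding protein gene RBM3 (5.76), the G-quadruplex helicase gene DHX36 (5.63), the Integrator subunit gene INTS5 (5.19) and RBM45 (4.79). The patterns did not match EPRS1 (6.36) for translation or DCP2 (7.81) for RNA processing. DNA replication and repair supplied 5 of 134 (3.73%, 1.22 to 8.49), led by the replicative helicase gene MCM7 (5.54), RAD51C (5.27) and XRCC2 (4.83) of recombination and the origin-binding gene ORC2 (3.29). All of these intervals held 2.37%.

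Membrane traffic supplied 14 of 384 (3.65%, 2.01 to 6.04), led by the exocyst gene EXOC2 (6.41), the small GTPase gene ARL6 (6.23) and the adaptor genes AP1S2 (6.11) and AP4B1 (5.93). Ubiquitin pathway genes supplied 10 of 467 (2.14%, 1.03 to 3.90), led by USP2 (7.05), KLHL18 (5.68), FBXO10 (5.62) and RNF217-AS1 (5.61), the last an RNA named for its neighbour. Transporters and channels supplied 16 of 630 (2.54%, 1.46 to 4.09), led by the copper pump gene ATP7B (7.39), SLC35E3 (6.67), the UDP-galactose carrier gene SLC35A2 (5.93) and TMEM241 (5.71), which is in the group under another symbol.

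Zinc finger genes by the names ZNF, ZSCAN and ZFP supplied 12 of 573 (2.09%, 1.09 to 3.63; median fold 5.19). After ZSCAN23 came ZNF738 (6.84), ZFP69 (6.17) and ZNF530 (5.98). BTB, KLF and SP zinc finger names supplied 2 of 73 (2.74%, 0.334 to 9.55), the BTB genes ZBTB6 (5.58) and ZBTB7C (5.56). ZNF408 (5.04) was the 1 of 17 genes (5.88%, 0.149 to 28.7) of the PRDM family, to which MECOM belongs. Histones made 4 of 79 (5.06%, 1.40 to 12.5), with H4C14 (5.12) and H4C15 (2.86) beside the genes named above.

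Chromatin regulators supplied 5 of 149 (3.36%, 1.10 to 7.66). SETD9 reached 6.48, and the acetyltransferase gene KAT6A, PHF21A of a demethylase complex and the DNA demethylase gene TET1 each 4.73. Mitochondrial genes supplied 5 of 204 (2.45%, 0.801 to 5.63), led by the complex I gene NDUFB3 (6.05), SLC25A32 (5.64), SLC25A44 (5.04) and SLC25A53 (4.85). Cilium and centrosome names supplied 6 of 237 (2.53%, 0.935 to 5.43), led by CEP350 (6.14), WDR12 (5.93), WDR55 (5.71) and WDR20 (5.27), although WDR names mark a protein fold and WDR12 acts in ribosome assembly. These names did not match TCTN1 (8.90) or EFCAB2 (6.36).

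Groups nearer to the question of the study were small, and their intervals held the 2.37% of all protein-coding genes. Of 44 blood and leukaemia transcription factors, 2 had a peak across the start (4.55%, 0.555 to 15.5): MYB of blood progenitors (4.26, 2.84 to 6.17) and MITF of mast cells and melanocytes (2.89, 1.80 to 4.43). GATA2, the proposed competitor of MECOM, had none across its start. Of 32 immediate early and ERK feedback genes there were 3 (9.38%, 1.98 to 25), namely SPRED1, a brake on RAS (5.93, 3.48 to 9.55), the AP-1 gene JUN (4.66, 3.03 to 6.90) and SPRY2, another feedback inhibitor (2.98, 2.07 to 4.17). SPRY2 had 32 fragments and SPRED1 15, and their order by fold turned on backgrounds of 10.1 and 1.7. Besides MIR4522, the small RNA names held MIR4500HG (3.43), a host transcript whose peak also held the start of SLITRK5.

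**Figure D5:**
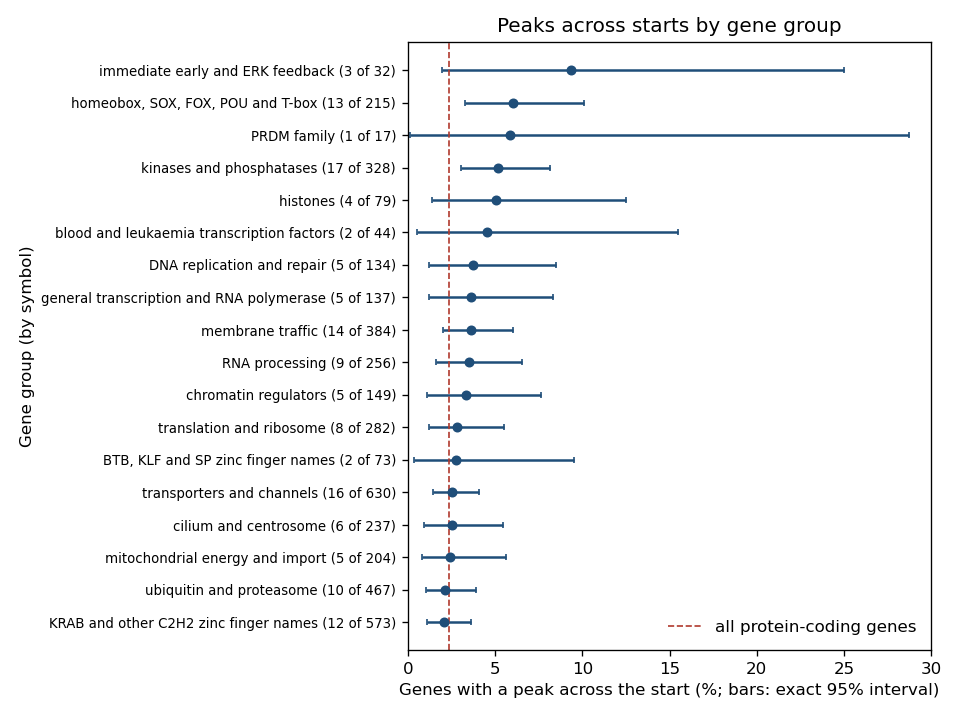
Percent of the protein-coding genes of each group that had a peak across the start (x axis), as points with exact 95% binomial intervals and with counts in the group labels (y axis), and the share over all protein-coding genes, 2.37%, as a dashed line. The intervals of most groups cross the line; those of kinases and phosphatases (3.05 to 8.17) and of homeobox, SOX, FOX, POU and T-box genes (3.26 to 10.1) lie above it. Groups hold matched symbols only and leave out some genes of like function.

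Members were uneven across chromosomes. Chromosome 1 held 94 of them (17.4%), beside 13.7% of all peaks, and 4.07% of its 2062 protein-coding genes had one. The share was 6.21% on chromosome 13 and 4.44% on chromosome 18, but 0.965% on chromosome 19 and 0.418% on chromosome 21. The median expected background was 4.15 fragments on chromosomes 1 and 13 and 4.76 on chromosome 18, against 2.38 on chromosome 19. It did not follow the share throughout. It was also 4.15 on chromosomes 16 and 22, where the shares were 1.52% and 1.11%. On chromosome 21 it was 3.01, above the 2.46 of chromosome 5, where the share was 2.65%. The part of background in the counts was not tested. On chromosome 1 the median member reached 23 fragments (21 to 24) at a fold of 4.56 (4.04 to 4.83), and elsewhere 19 fragments (18 to 19) at 4.82 (4.70 to 5.04).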

How the data were processed

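Peaks came from 1 annotated list of a ChIP-seq experiment with 3 libraries, 1 in each of 3 groups. The submitters' processing notes name the build hg38. They also name MACS2 (2.1.1.20160309.6), HOMER (4.10), Bowtie2 (2.4.2), deepTools (3.5.1.0.0 and 3.3.2.0.0) and ChIPseeker (1.18.0), without roles. The deposited table has no header, so columns were identified from their values; columns of values tied to no sample numbered 0. The deposited fold enrichment is the ratio of a peak's pile-up to its expected background, the deposited −log10 p and −log10 q measure how unlikely that pile-up is by background alone, and the deposited score equalled 10 times −log10 q rounded down in all 3465 lines. These are the authors' values for each peak and serve only to describe peaks within this list. Library totals were not used here.

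One line was kept per peak (3 lines repeat a peak). Fragments, meaning the pile-up height, and background were recovered together from the fold and −log10 p. The whole number of fragments was sought that, with 1 added to it and to the background, returned the fold as their quotient. It also had to return −log10 p as a Poisson tail within 0.001 (a share of 1e-05 above 1000), which held for all 3462 peaks. On simulated peaks with 13 to 198 fragments, made by the same formulas, the true values came back in 500 of 500. That checks the inversion only, not what the deposited values mean, and members went down to 10 fragments. Gene types, neighbours and promoter windows came from RefSeq on GRCh38.p14; motifs were matched exactly on both strands. Windows printed by the rule below lie off chromosome 8, hold the peak centre and have no other RefSeq start in the printed bases.

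Members, groups and alternatives were chosen with earlier results of these data known. Genes named were the 25 highest and 5 lowest by fold, those wholly covered, the 5 widest, those with 2 or more start-spanning peaks, and up to 4 per group by fold; other genes named were chosen after their values were seen. Printed promoters were the highest with an ETS or MECOM motif, then with none, and 3 chosen afterwards. Alternatives were a q of at most 1e-05, autosomes, start overlap without covered genes, protein-coding genes, merged neighbours, other distances, −log10 q as height and the 250 bases before the start. Python 3.11.15, pandas 2.3.3, numpy 2.4.6, scipy 1.17.1 and matplotlib 3.10.9 were used.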

Additional observations from a re-analysis of the deposited data

How the results depend on the processing

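Of 58 alternative values, 48 stayed within the interval of the value reported, or for the count of peaks within 1.5 times of it. A q of at most 1e-05 left 325 peaks across named starts and gave a share of 24.4%, a median fold of 5.56 and a median centre of 95 bp after the start; this setting keeps fewer and higher peaks by construction. With −log10 q as the height, the difference of medians on the log2 scale was 0.18 against inside peaks and 0.16 against upstream peaks. Limits of one median minus the opposite limits of the other ran from 0.0103 to 0.301 against inside peaks and from −0.114 to 0.374 against upstream peaks. Such limits are not a 95% interval of the difference, and no test over peaks was made. Members were also wider, and the rule bears on width. The cause was not tested. The share of members near a boundary of another gene was 19.3% for protein-coding members, 16.3% within 500 bp and 41.8% with neighbours of any type. The ETS site share was 12.7% in the 250 bases before the start, a shorter stretch. The setting without chromosome 1 was chosen after seeing the data and moved none of the values beyond these limits. The planned use of peak summits was not run, since the table used holds peak ends only. No paired analysis was possible because only the list of 1 library was analysed. The ranking of members is limited by their fragments, a median of 19.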

Other observations

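Members were also counted in windows of 5 Mb, as values that no comparison above uses. Beside these counts, 2.37% of all protein-coding genes had a start-spanning peak, and 4.07% of those on chromosome 1 and 6.21% of those on chromosome 13. Members were 539 of all 3462 peaks. Of windows of 5 Mb, the one from 110 to 115 Mb of chromosome 1 held the most, 7 members among 16 peaks and 60 protein-coding genes: AP4B1, CTTNBP2NL, DDX20, HIPK1-AS1, KCNC4, PHTF1 and SLC16A1. The window from 75 to 80 Mb of chromosome 13, one of several with 5 members, held COMMD6, MYCBP2, NDFIP2, POU4F1 and TBC1D4 among 18 peaks and 18 protein-coding genes. It contains 2 of the 5 widest members, COMMD6 and MYCBP2, and NDFIP2, an adaptor of ubiquitin ligases. The pile-up of NDFIP2, 53 fragments, was among the highest of any member (4.63-fold, 3.49 to 6.03). Windows and genes were chosen after their values were seen, and no test was made.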
